A study of Mus musculus with 32 samples.

Results

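Myenteric neurons of the mouse colon were compared with those of the small intestine (SI) through their nuclear RNA, in the 8 libraries of EGFP-positive nuclei that came from mice of the Francis Crick Institute facility, out of 32 libraries in the whole series. The members were chosen by their labels alone, 4 colon libraries (Crick_ColPos 1 to 4) and 4 SI libraries (Crick_SiPos 1 to 4), and every gene of the deposited table was examined. All mice were C57BL/6 animals kept specific pathogen free. Each had received an intravenous AAV9 carrying CaMKII-EGFPKASH, an EGFP with a domain that tethers it to the nuclear envelope, 5 weeks before the longitudinal muscle and the myenteric plexus attached to it were stripped from the gut wall. Nuclei were released by homogenisation, gated as intact and not aggregated by DAPI, and sorted into EGFP-positive nuclei, labelled neuronal, and EGFP-negative nuclei, labelled non-neuronal. Any nucleus in which the virus and the CaMKII promoter were active entered the neuronal gate, so the sort depends on the tropism of the virus and on that promoter. The other 24 libraries are the non-neuronal nuclei of the same facility (Crick_ColNeg and Crick_SiNeg) and 4 matching groups from the University of Bern, with 4 libraries in each of the 8 groups. The labels do not say whether replicates came from separate animals, so p-values measure the spread between these samples, which may be technical in part.

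The myenteric plexus lies between the muscle layers of the gut and drives its movements without input from the brain. Its neurons include excitatory motor neurons that release acetylcholine and tachykinins, inhibitory motor neurons that release nitric oxide and vasoactive intestinal peptide, interneurons and intrinsic sensory neurons. Between these neurons and the muscle stand interstitial cells of Cajal, which pace the slow electrical waves and depend on the receptor tyrosine kinase Kit and the chloride channel Ano1. Colonic contents differ from those of the SI in bacterial density and in metabolites, and the aryl hydrocarbon receptor (Ahr) is a transcription factor that binds many such compounds.

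The 4 colon libraries held 3788206 to 6828347 estimated counts and the 4 SI libraries 4417829 to 8192741, with 25789 to 26347 genes above 0 in colon and 27071 to 34286 in SI. Transcripts encoded by the mitochondrial genome, which lies outside the nucleus, made up 0.826% to 1.39% of each colon library and 2.76% to 16% of each SI library. SI library 2 held the 16% and stood apart from the other SI libraries on the first principal component of the 1000 most variable genes (55.4% of their variance), and colon library 4 stood apart from the other colon libraries on the second (21.1%). The 4 Crick libraries numbered 4, among them colon 4 and SI 4, had at least 5253 CPM of Xist and at most 0.359 CPM of the Y-linked Uty, whereas the other 12 Crick libraries had at most 8.68 CPM of Xist and at least 36.2 CPM of Uty. Both segments thus held 1 library of that kind. CPM are the usual scaled counts, with library sizes scaled by TMM. Where a group has no count the limit is 3 counts over its 4 libraries (0.15 CPM in colon, 0.133 CPM in SI), and such limits and intervals cover counting error only.

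The neuronal label was checked against 20 genes that mark neurons in general, such as Elavl4, Snap25, Uchl1 and Ret. All 20 were higher in colon neuronal than in colon non-neuronal nuclei (median log2 difference 3.05), where 16.9% of all genes tested were higher. In SI 19 of 20 were higher (median 4.24), against 14% of all genes (27.8% in either direction), and the exception was Hand2, a transcription factor of the developing gut (0.38 ± 0.39, SE, adjusted p = 0.532). Summed over the list, with CPM scaled over the 16 Crick libraries as in all sums of lists here, neuronal nuclei held 4765 to 5674 CPM in colon and 3998 to 5144 CPM in SI, and non-neuronal nuclei 317 to 630 CPM in colon and 197 to 317 CPM in SI. The neuronal groups lay far above the non-neuronal groups, without overlap.

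Markers of other cells were mostly depleted from the neuronal sort. All 14 smooth muscle genes were lower in neuronal than in non-neuronal nuclei in both segments, as were 9 of 13 enteric glia genes in colon and 12 of 13 in SI, and 12 of 15 fibroblast genes in each, where 22.7% of all genes were lower in colon and 13.8% in SI. Interstitial cells of Cajal were the exception. Of the 13 genes on that list 7 were lower and 2 higher in colon neuronal nuclei than in colon non-neuronal nuclei (median -4.11), whereas in SI 1 was lower and 6 were higher in the neuronal nuclei (median 0.69). The SI libraries labelled neuronal therefore carried transcripts that define another cell type at or above their level in the non-neuronal nuclei.

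Across 16407 genes tested, 540 (3.29%) differed between colon and SI neuronal nuclei at an adjusted p under 0.05. Of these 169 were higher in colon (1.03% of those tested) and 371 were lower (2.26%), around a median log2 difference of 0.02 over all genes. Counts of list members higher or lower in colon, given below, are to be read against these shares. The 4 colon and 4 SI libraries did not overlap for any of the 169 genes that were higher, nor for 370 of the 371 that were lower. Among all genes tested 12.3% did not overlap, 5.95% with colon higher and 6.38% with colon lower. All adjusted p-values are from edgeR's quasi-likelihood test with Benjamini-Hochberg adjustment over every gene tested. In such sorted bulk samples fewer nuclei of a type and less RNA per nucleus cannot be told apart. The number of calls fell to 279, 309, 285 and 284 without colon library 1, 2 or 3 or SI library 1. Of 138 called genes that were followed through the 8 fits that leave out 1 library, 76 passed in every fit and 63 passed in a fit of all 16 neuronal libraries of both facilities. Where a gene of this comparison that is given below with its adjusted p lost its call without 1 library, the library and the adjusted p, or their range, follow.

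**Figure D1:**
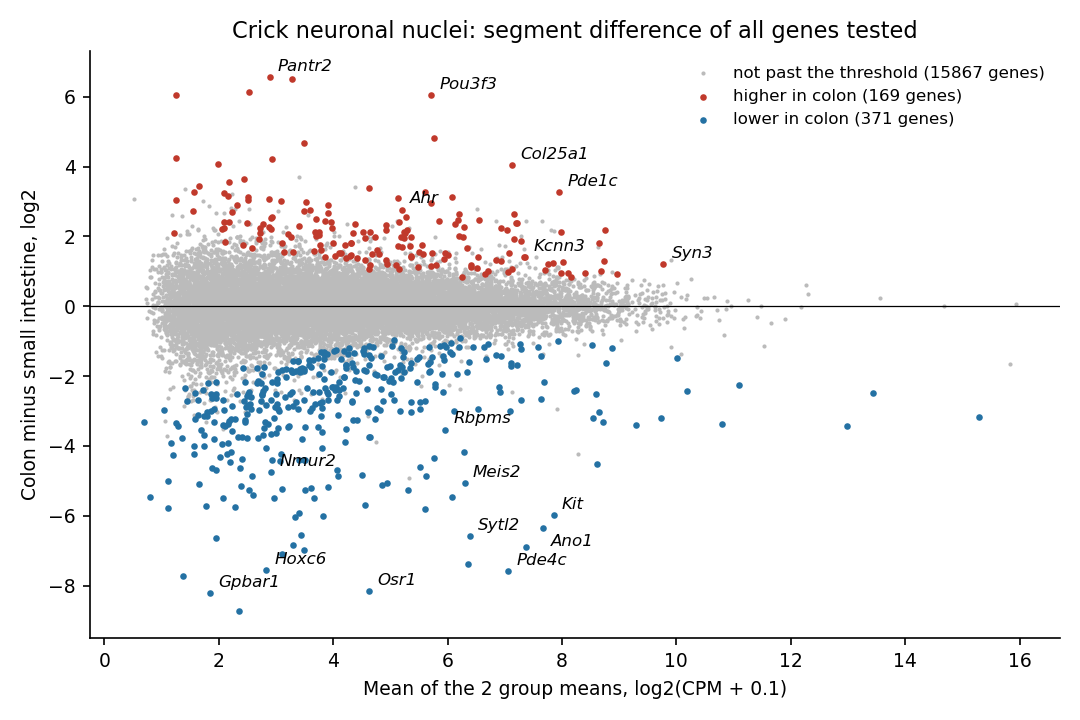
Log2 difference of colon minus SI neuronal nuclei of the Crick facility (vertical axis) against mean level (horizontal axis, log2 CPM) for the 16407 genes tested, with 169 genes higher in colon and 371 lower at an adjusted p under 0.05. The cloud is centred near 0 (median 0.02) and the genes that were lower reach larger differences than most that were higher.

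None of the 20 pan-neuronal genes passed (median 0.07), where 3.29% of all genes tested did, so the count does not set the list apart. The closest was the neurofilament Nefl, with 31.0, 28.6, 27.2 and 31.8 CPM in colon libraries 1 to 4, against 18.1, 13.8, 13.7 and 14.4 CPM in SI libraries 1 to 4 (0.98 ± 0.24, adjusted p = 0.0501). Every colon library of Nefl was above every SI library, and the value missed the threshold narrowly. Chat, the enzyme that makes acetylcholine, had 84.7 to 151 CPM in colon and 116 to 168 CPM in SI, and Nos1, which makes nitric oxide, had 601 to 1258 CPM in colon and 470 to 1152 CPM in SI. Both overlapped between segments, with log2 differences of -0.18 ± 0.24 (adjusted p = 0.756) for Chat and 0.27 ± 0.31 (adjusted p = 0.714) for Nos1.

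The gene with the smallest adjusted p among those higher in colon was Pou3f3, which encodes the POU-domain transcription factor BRN1 of developing brain and kidney. It had 121, 105, 91.5 and 94.9 CPM in colon libraries 1 to 4, against 2.14, 2.02, 1.52 and 0.650 CPM in SI libraries 1 to 4. All colon libraries were high and all SI libraries close to background, without overlap, a 66.3-fold difference (log2 6.05 ± 0.37, adjusted p = 2.89e-05). Pou3f3 lies on chromosome 1 (GRCm38, 42695768 to 42703176, plus strand) between 2 long noncoding genes on the minus strand, Pantr1 (42590782 to 42694842) and Pantr2 (42707061 to 42713454), and both noncoding genes were also higher in colon.

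Pantr2 had 13.2, 13.2, 13.4 and 18.3 CPM in colon libraries 1 to 4, against 0, 0.367, 0 and 0.130 CPM in SI libraries 1 to 4. The SI group held 3 counts in all against 300 in colon, which gives a ratio of 113 with a 95% counting interval of 38.2 to 550 (adjusted p = 0.000317). Pantr1 had 23.8, 30.2, 22.5 and 26.2 CPM in colon libraries 1 to 4, against 2.62, 4.04, 6.29 and 3.25 CPM in SI libraries 1 to 4 (log2 2.66 ± 0.34, adjusted p = 0.00170). Another gene of the locus, the long noncoding Dalir, had 8.65, 5.75, 5.50 and 2.78 CPM in colon, against 1.19, 1.65, 0 and 0 CPM in SI. Its groups did not overlap either, and its difference of 3.03 ± 0.92 did not pass (adjusted p = 0.121).

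Pou3f3 and Pantr2 run towards each other from start sites 17686 bases apart, and the 250 bases before each start are shown because both genes were higher in the same libraries. The third sequence is the same stretch before Ahrr, the repressor that Ahr is known to induce, which was higher in colon as well. Sequences are from RefSeq (GRCm38.p6), read 5′ to 3′ on the strand of the gene, and capitals mark GCGTG, the core of the element that the AHR and ARNT dimer binds.
Pou3f3 (chr1:42695518-42695767, plus strand): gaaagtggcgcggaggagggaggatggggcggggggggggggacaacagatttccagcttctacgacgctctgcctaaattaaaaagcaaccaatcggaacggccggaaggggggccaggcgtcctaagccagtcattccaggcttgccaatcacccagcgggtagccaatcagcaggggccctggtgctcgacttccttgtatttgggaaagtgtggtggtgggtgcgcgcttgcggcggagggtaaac
Pantr2 (chr1:42713455-42713704, minus strand): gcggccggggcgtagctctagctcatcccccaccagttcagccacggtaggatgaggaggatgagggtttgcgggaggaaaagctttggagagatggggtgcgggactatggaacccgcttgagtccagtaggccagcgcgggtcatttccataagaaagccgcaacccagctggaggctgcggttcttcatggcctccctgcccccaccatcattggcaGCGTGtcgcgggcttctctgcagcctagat
Ahrr (chr13:74292332-74292581, minus strand): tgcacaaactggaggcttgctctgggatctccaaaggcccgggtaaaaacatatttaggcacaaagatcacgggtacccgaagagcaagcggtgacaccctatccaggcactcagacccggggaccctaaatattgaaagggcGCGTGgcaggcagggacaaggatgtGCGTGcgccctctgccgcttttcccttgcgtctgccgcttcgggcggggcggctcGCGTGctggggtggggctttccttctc
GCGTG, or CACGC on the other strand, was found 3 times before Ahrr (starting 107, 82 and 27 bases before its start), at 1 place before Pantr2 (30 bases before) and not before Pou3f3. It occurs in 28.2% of 32851 promoters of the same length. ATGCAAAT, the octamer of POU factors (ATTTGCAT on the other strand), was in none of the 3 sequences and in 1.6% of all promoters. All 3 are rich in G and C (60.4% to 61.2%), and a match is a description of letters, not of binding.

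Ahr itself had 73.0, 74.4, 52.8 and 56.2 CPM in colon libraries 1 to 4, against 11.2, 7.34, 12.4 and 6.89 CPM in SI libraries 1 to 4. The lowest colon library lay far above the highest SI library, a 6.80-fold difference (log2 2.77 ± 0.29, adjusted p = 0.000513). Ahrr had 17.3, 16.9, 11.0 and 7.17 CPM in colon, against 3.81, 4.77, 4.38 and 4.68 CPM in SI (1.56 ± 0.37, adjusted p = 0.0458). Its groups did not overlap, but its call was lost without any library except colon 4, with adjusted p of 0.162, 0.15 and 0.0973 without colon 1, 2 and 3, and of 0.138, 0.0846, 0.101 and 0.109 without SI 1, 2, 3 and 4. These 2 were the members that passed among 7 tested of the Ahr pathway, whose median was 0.32. The other 5 did not: Arnt, the partner of Ahr in binding DNA, had 146 to 165 CPM in colon and 112 to 147 CPM in SI (0.27 ± 0.19, adjusted p = 0.529), and the target Tiparp had 14.6 to 41.5 CPM in colon and 13.4 to 35.7 CPM in SI (0.32 ± 0.41, adjusted p = 0.746). Cyp1b1, a cytochrome induced by Ahr in many tissues, had 0 to 5.14 CPM in colon and 1.56 to 2.62 CPM in SI (0.49 ± 0.82, adjusted p = 0.816, and -0.94 with limma-voom), and its groups overlapped.

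**Figure D2:**
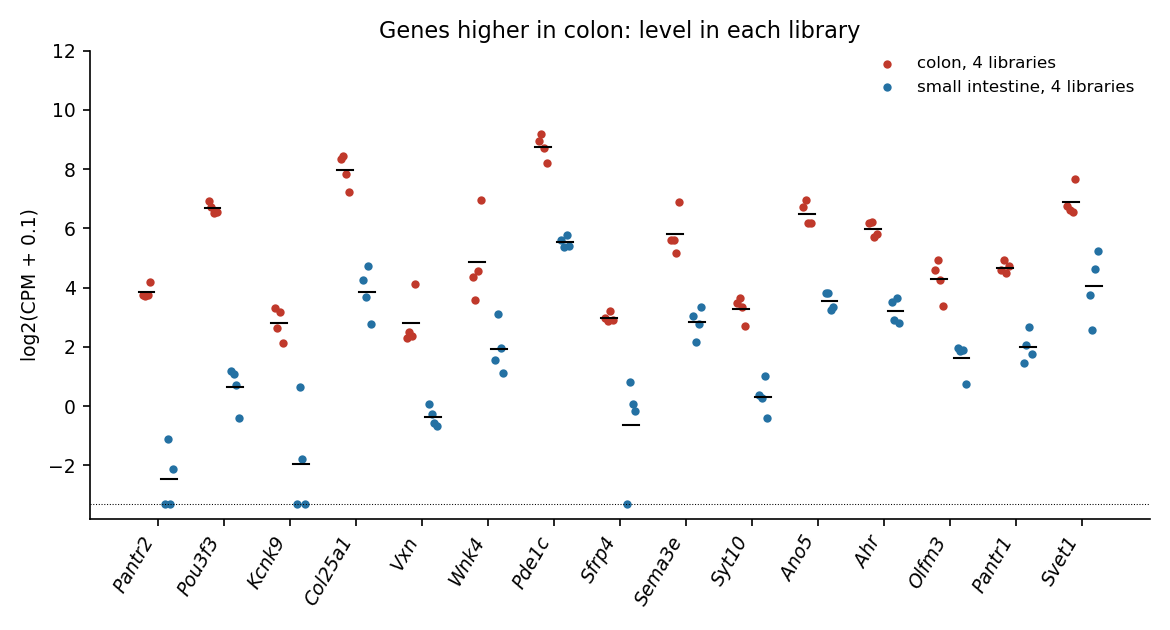
Level in each library (points, log2 of CPM plus a small constant) of the 15 named genes higher in colon, with colon libraries left of SI libraries for each gene; black bars are means of the log values and the dotted line is 0 CPM. In each gene all 4 colon points lie above all 4 SI points, as the rule that chose the genes required, with the widest gap at Pantr2 and Pou3f3.

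Neurotransmitter lists were too short for their counts of calls to be read against the 3.29% of all genes tested that passed. Penk, the precursor of enkephalins, had 87.2, 108, 86.8 and 207 CPM in colon libraries 1 to 4, against 40.0, 37.8, 26.3 and 50.8 CPM in SI libraries 1 to 4 (1.66 ± 0.33, adjusted p = 0.0209), and it lost its call without SI 1, 2 or 3 (adjusted p of 0.0711, 0.0512 and 0.0556). It was the single gene of 7 on the cholinergic and tachykinin list to pass. Tac1, the precursor of substance P, had 207, 269, 165 and 445 CPM in colon, against 117, 56.2, 101 and 133 CPM in SI, groups that did not overlap although the difference missed the threshold (1.41 ± 0.35, adjusted p = 0.0545). None of 6 nitrergic genes tested passed, Vip included (18.3 to 169 CPM in colon, 29.0 to 85.3 CPM in SI, adjusted p = 0.432).

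Among 7 tested genes tied to sensory-type neurons, Sst, the somatostatin precursor, was higher and the cadherins Cdh6 and Cdh9 were lower in colon. Sst had 77.9, 84.5, 62.4 and 65.0 CPM in colon libraries 1 to 4, against 33.8, 22.2, 16.8 and 13.8 CPM in SI libraries 1 to 4 (1.75 ± 0.30, adjusted p = 0.00946). Cdh9 had 2.40, 0.822, 1.91 and 0.732 CPM in colon, against 31.9, 22.4, 16.2 and 10.8 CPM in SI (-3.81 ± 0.51, adjusted p = 0.00229), and Cdh6 had 6.00 to 10.5 CPM in colon and 24.4 to 35.8 CPM in SI (-1.77 ± 0.29, adjusted p = 0.00687). Neither cadherin overlapped between segments. Of 23 tested transcription factors and regulators of neuronal identity none was higher in colon and 2 were lower, the homeobox gene Meis2 and the RNA-binding protein gene Rbpms. Over all genes tested 1.03% were higher and 2.26% lower. Meis2 had 7.21, 7.40, 2.63 and 1.17 CPM in colon libraries 1 to 4, against 203, 175, 131 and 102 CPM in SI libraries 1 to 4 (-5.07 ± 0.53, adjusted p = 0.000513), and Rbpms had 6.21 to 12.7 CPM in colon and 91.8 to 137 CPM in SI (-3.54 ± 0.29, adjusted p = 0.000118). Both genes were also abundant in non-neuronal nuclei, Meis2 with 180 to 406 CPM in colon and 518 to 647 CPM in SI, and whether non-neuronal transcripts in the SI sort bear on its difference was not tested.

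Potassium channels, which set excitability, had 5 of 44 tested members higher and 2 lower in colon (median 0.11). Over all genes tested the shares were 1.03% higher and 2.26% lower. Kcnn3, a calcium-activated SK channel, had 247, 197, 221 and 282 CPM in colon libraries 1 to 4, against 81.2, 104, 92.4 and 79.8 CPM in SI libraries 1 to 4 (1.41 ± 0.20, adjusted p = 0.00382). Kcnk9, a leak channel of the TASK family, had 9.85, 6.17, 8.84 and 4.24 CPM in colon, against 0, 1.47, 0.191 and 0 CPM in SI (4.07 ± 0.90, adjusted p = 0.0329). Its relative Kcnk3 went the other way, with 4.81, 5.14, 8.37 and 12.3 CPM in colon, against 53.8, 79.7, 31.6 and 37.0 CPM in SI (-2.71 ± 0.41, adjusted p = 0.00443). None of these 3 overlapped between segments. Kcnn3 and Kcnk3 passed in all 8 fits that leave out 1 library, while Kcnk9 lost its call in 6 of them, without colon 1, 2 or 3 (adjusted p of 0.1, 0.0716 and 0.101) or SI 1, 3 or 4 (0.0957, 0.0875 and 0.0749). The voltage-gated channels Kcnd3 (1.00 ± 0.23), Kcnh7 (1.48 ± 0.29) and Kcnh5 (2.40 ± 0.58), all higher, and Kcnh1 (-1.15 ± 0.26), lower, had adjusted p of 0.0199 to 0.0495. Each lost its call in at least 4 of the 8 fits: Kcnh7 without colon 1, 2 or 3 or SI 4 (0.0594 to 0.0748), Kcnh1 in all except those without colon 4 and SI 3 (0.0662 to 0.130), Kcnd3 in all except that without colon 4 (0.0524 to 0.145), and Kcnh5 in all except that without colon 2 (0.0779 to 0.129).

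Of the 25 tested receptors for acetylcholine, monoamines and purines 2 were higher and none lower, and both were serotonin receptors. The shares over all genes tested were 1.03% higher and 2.26% lower. Htr2b, a Gq-coupled serotonin receptor, had 235, 280, 216 and 248 CPM in colon libraries 1 to 4, against 77.4, 60.6, 69.5 and 61.1 CPM in SI libraries 1 to 4 (1.86 ± 0.20, adjusted p = 0.000513). Htr7, a Gs-coupled one, had 14.9, 13.8, 13.4 and 8.78 CPM in colon, against 2.38, 3.49, 2.29 and 0.650 CPM in SI (2.54 ± 0.48, adjusted p = 0.0158). All colon libraries exceeded all SI libraries for both, and Htr7 lost its call without colon 1 or 3 or SI 1 (adjusted p of 0.0550, 0.0530 and 0.0550). Of 29 glutamate, GABA and glycine receptors tested 1 passed, the metabotropic receptor Grm3 (1.57 ± 0.38, adjusted p = 0.0484), where 3.29% of all genes did. Grm3 passed in none of the 8 fits that leave out 1 library (adjusted p of 0.0550 without SI 3 to 0.145 without SI 4).

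Of 26 peptide and hormone receptors tested 1 was higher and 4 were lower in colon, where 1.03% and 2.26% of all genes were. Calcrl, the receptor that binds CGRP and adrenomedullin with its RAMP partners, had 134, 158, 107 and 136 CPM in colon libraries 1 to 4, against 68.6, 38.0, 47.8 and 48.5 CPM in SI libraries 1 to 4 (1.40 ± 0.24, adjusted p = 0.00910). Nmur2, a neuromedin U receptor, had 0.240, 1.03, 0.717 and 0.146 CPM in colon, against 13.1, 12.8, 16.4 and 15.1 CPM in SI (-4.74 ± 0.53, adjusted p = 0.000721). Both patterns were free of overlap and held in all 8 fits that leave out 1 library. The endothelin receptor Ednra had 2.20 to 7.41 CPM in colon and 18.7 to 42.9 CPM in SI (-2.56 ± 0.42, adjusted p = 0.00687). The other 2 were Ednrb (-1.76 ± 0.33, adjusted p = 0.0146), which lost its call without colon 2 or 3 or SI 1 (0.0502, 0.0541 and 0.0546), and the cholecystokinin receptor Cckar (-3.77 ± 0.71, adjusted p = 0.0149), which lost it without colon 1 or 3 (0.0571 and 0.0606). Edn3, the ligand of Ednrb, had 0, 0.206, 0 and 0.293 CPM in colon libraries 1 to 4, against 24.8, 21.7, 16.8 and 14.4 CPM in SI libraries 1 to 4. Only 3 counts were found in the colon group, an SI to colon ratio of 125 with a 95% counting interval of 42.3 to 606 (adjusted p = 0.000181).

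Receptors for bacterial and dietary metabolites were mostly too low to test, with 6 of 20 tested. Gpbar1, the bile acid receptor TGR5, had no count in any colon library, against 11.2, 3.49, 6.86 and 6.37 CPM in SI libraries 1 to 4. With 0 counts in the colon group and 151 in SI, it was at least 46.6-fold lower in colon (adjusted p = 0.00382). The short-chain fatty acid receptor Ffar3 had 5.77 to 11.2 CPM in colon and 4.53 to 9.88 CPM in SI, overlapping between segments (0.15 ± 0.38, adjusted p = 0.888). Gpbar1 was the only member of that list to pass.

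Of 49 genes of synaptic vesicles and release 3 were higher and 3 lower (median 0.04), where 1.03% and 2.26% of all genes were. Syn3, a synapsin, had 1375, 1114, 1255 and 1151 CPM in colon libraries 1 to 4, against 408, 598, 560 and 541 CPM in SI libraries 1 to 4 (1.22 ± 0.20, adjusted p = 0.00631). Syt10, a synaptotagmin that triggers release of growth factor vesicles in brain neurons, had 11.1, 12.3, 10.0 and 6.44 CPM in colon, against 1.19, 1.1, 1.91 and 0.650 CPM in SI (3.04 ± 0.46, adjusted p = 0.00443). Rph3a, rabphilin, had 0.411 to 2.15 CPM in colon and 7.05 to 13.8 CPM in SI (-2.82 ± 0.50, adjusted p = 0.0110). All 3 were without overlap. Sytl2, a synaptotagmin-like partner of Rab27, had 3.12, 2.47, 0.956 and 0.586 CPM in colon libraries 1 to 4, against 235, 206, 126 and 96.7 CPM in SI libraries 1 to 4 (-6.57 ± 0.53, adjusted p = 0.000118), and it is also abundant outside neurons, with 173 to 306 CPM in colon and 110 to 144 CPM in SI non-neuronal nuclei. Sv2b (1.52 ± 0.32, adjusted p = 0.0243) and Syt9 (-0.98 ± 0.23, adjusted p = 0.0439) also passed. Sv2b kept its call only without colon 4 or SI 1 (0.0542 to 0.0872 in the other 6 fits), and Syt9 kept it in none of the 8 (0.0557 to 0.143).

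Genes of cyclic nucleotide signalling had 3 of 37 tested members higher and 2 lower, most of them phosphodiesterases. All genes tested gave 1.03% higher and 2.26% lower. Pde1c, the calmodulin-dependent phosphodiesterase of cAMP and cGMP, had 492, 576, 420 and 295 CPM in colon libraries 1 to 4, against 48.1, 41.7, 54.5 and 42.1 CPM in SI libraries 1 to 4, a 9.57-fold difference (3.26 ± 0.26, adjusted p = 0.000116). Pde4c, a cAMP-specific enzyme, had 2.40, 0.822, 1.91 and 0.586 CPM in colon, against 263, 470, 98.5 and 231 CPM in SI (-7.59 ± 0.61, adjusted p = 0.000118). Pde1c was high in every colon library and Pde4c in every SI library, with no overlap in either. Pde3a had 139 to 261 CPM in colon and 472 to 819 CPM in SI (-1.64 ± 0.27, adjusted p = 0.00682). The other 2 members higher in colon were Pde4d (1.06 ± 0.21, adjusted p = 0.0182), lost without colon 1 or 2 or SI 1 or 4 (0.0601 to 0.0824), and Rapgef4, the cAMP sensor EPAC2 (1.16 ± 0.22, adjusted p = 0.0162), lost without colon 1 or 2 or SI 1 (0.0553 to 0.0640).

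Guidance and adhesion genes differed in both directions. Of 53 axon guidance genes tested 4 were higher and 5 lower in colon (median -0.34), where 1.03% and 2.26% of all genes were. Sema3e, a secreted semaphorin that signals through plexin D1, had 49.0, 48.3, 35.6 and 118 CPM in colon libraries 1 to 4, against 8.10, 4.40, 6.67 and 10.1 CPM in SI libraries 1 to 4 (3.09 ± 0.43, adjusted p = 0.00295). The receptor genes Unc5d, of the UNC5 netrin receptor family, with 88.9 to 112 CPM in colon and 12.9 to 21.5 CPM in SI (2.44 ± 0.25, adjusted p = 0.000419), and Dcc, the attractive netrin receptor, with 22.7 to 40.3 CPM in colon and 7.8 to 9.53 CPM in SI (1.74 ± 0.29, adjusted p = 0.00726), were higher, as was Sema3a, a repellent semaphorin (2.04 ± 0.34, adjusted p = 0.00714). Ntn1, the netrin that Dcc binds, was lower, with 3.90 to 10.4 CPM in colon and 14.3 to 21.3 CPM in SI (-1.55 ± 0.36, adjusted p = 0.0410), a call kept only without colon 4 (0.0556 to 0.132 in the other 7 fits). Lower too were Sema5a (-2.52 ± 0.33, adjusted p = 0.00208), the ephrin receptors Epha4 (-2.06 ± 0.30, adjusted p = 0.00411) and Ephb3 (-4.64 ± 0.58, adjusted p = 0.00156), and Slit3 (-1.68 ± 0.34, adjusted p = 0.0233), which lost its call without colon 1, 2 or 3 or SI 1 (0.0552 to 0.0832).

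Svet1, a noncoding transcript of chromosome 8 (29108837 to 29112776, minus strand), lies within Unc5d (28646717 to 29219636) on the same strand and had 107, 99.3, 94.6 and 203 CPM in colon libraries 1 to 4, against 13.3, 5.87, 24.4 and 37.3 CPM in SI libraries 1 to 4 (2.63 ± 0.50, adjusted p = 0.0159). It lost its call without SI 1 (0.0662). Reads of unspliced Unc5d RNA could be counted for it, so the 2 genes are not separate evidence.

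Of 45 cadherins and related adhesion genes tested 2 were higher and 5 lower (median 0.03), where 1.03% and 2.26% of all genes were. Pcdh17, a protocadherin of axons and synapses, had 35.6, 29.4, 19.6 and 36.6 CPM in colon libraries 1 to 4, against 313, 283, 169 and 206 CPM in SI libraries 1 to 4 (-3.0 ± 0.29, adjusted p = 0.000337). Pcdh19, the X-linked protocadherin of an epilepsy that affects girls, had 33.2, 34.5, 27.2 and 53.6 CPM in colon, against 5.72, 8.99, 8.38 and 10.5 CPM in SI (2.13 ± 0.31, adjusted p = 0.00401). These 2 protocadherins thus stood on opposite sides, each without overlap. Beside Cdh6 and Cdh9 the lower genes were Pcdh9 (-1.10 ± 0.23, adjusted p = 0.0233), lost without colon 1 or 3 or SI 1 or 3 (0.0596 to 0.0946), and Cdh8 (-1.88 ± 0.44, adjusted p = 0.0435), kept only without colon 2 or 4 (0.0707 to 0.125 in the other 6 fits). The other gene higher was Opcml (1.80 ± 0.38, adjusted p = 0.0275), lost without colon 1, 2 or 3 or SI 1 or 3 (0.0507 to 0.0938). Among genes of lists chosen after values were seen, Slitrk4, a synapse organiser, was higher (1.99 ± 0.25, adjusted p = 0.00157), as was Nxph1, a neurexin ligand (1.82 ± 0.28, adjusted p = 0.00486).

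Of 18 trophic, Ret and endothelin genes tested 2 were higher and 3 lower, where 1.03% and 2.26% of all genes were. The neurotrophin receptors Ntrk2 for BDNF, with 108 to 127 CPM in colon and 41.5 to 62.4 CPM in SI (1.12 ± 0.22, adjusted p = 0.0168), and Ntrk3 for NT-3, with 326 to 407 CPM in colon and 181 to 232 CPM in SI (0.84 ± 0.19, adjusted p = 0.0332), were higher in colon. The low-affinity receptor Ngfr was lower, with 8.93 to 17.5 CPM in colon and 27.2 to 39.6 CPM in SI (-1.28 ± 0.28, adjusted p = 0.0332), beside Edn3 and Ednrb. None of the 3 neurotrophin receptors overlapped between segments, and all 3 depended on single libraries: Ntrk2 was lost without colon 1 or 3 or SI 1 or 3 (0.0530 to 0.0640), Ntrk3 was kept only without colon 4 or SI 2 (0.0595 to 0.132 in the other 6), and Ngfr only without colon 2 or 4 (0.0633 to 0.112 in the other 6). Ret, the receptor for GDNF, had 281 to 314 CPM in colon and 223 to 329 CPM in SI (0.07 ± 0.20, adjusted p = 0.893).

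The remaining genes of the 15 with the largest differences higher in colon were of mixed function. Col25a1, a transmembrane collagen needed for motor innervation of skeletal muscle, had 328, 350, 231 and 150 CPM in colon libraries 1 to 4, against 18.8, 12.7, 26.7 and 6.76 CPM in SI libraries 1 to 4 (4.03 ± 0.44, adjusted p = 0.000648). Ano5, of the anoctamin family, had 72.2 to 123 CPM in colon and 9.34 to 14.1 CPM in SI (2.97 ± 0.29, adjusted p = 0.000328), and Olfm3, an olfactomedin of brain and retina, had 10.4 to 30.4 CPM in colon and 1.56 to 3.81 CPM in SI (2.76 ± 0.43, adjusted p = 0.00551). Each was higher in every colon library. Vxn, known from neurogenesis, had 4.81, 5.55, 5.02 and 17.3 CPM in colon, against 0.953, 0.734, 0.572 and 0.520 CPM in SI (3.56 ± 0.59, adjusted p = 0.00762). Wnk4, a kinase that regulates salt transport in kidney, had 20.4, 11.9, 23.7 and 124 CPM in colon, against 2.86, 8.44, 3.81 and 2.08 CPM in SI (3.39 ± 0.76, adjusted p = 0.0353). For both, colon library 4 was far above the other colon libraries, although the other 3 also exceeded every SI library. Wnk4 lost its call without colon 3 (0.0614) or SI 1, 3 or 4 (0.121, 0.0842 and 0.121). Sfrp4, a secreted Wnt inhibitor, had 7.19 to 9.08 CPM in colon and 0 to 1.65 CPM in SI (3.14 ± 0.62, adjusted p = 0.0198) and lost its call without colon 1, 2 or 3 (0.0614, 0.0513 and 0.0743) or SI 3 or 4 (0.0513 and 0.0684).

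Genes lower in colon included most markers of interstitial cells of Cajal. All 13 on that list were tested, and 8 were lower and none higher, with a median of -4.60. Kit had 5.53, 3.70, 2.63 and 16 CPM in colon libraries 1 to 4, against 583, 451, 361 and 428 CPM in SI libraries 1 to 4 (-5.99 ± 0.54, adjusted p = 0.000231). Ano1 had 5.77, 3.08, 1.67 and 8.78 CPM in colon, against 440, 527, 290 and 350 CPM in SI (-6.34 ± 0.48, adjusted p = 0.000108). Both groups were far apart, and the same held for the receptor gene Adgrd1, with 1.64 to 3.95 CPM in colon and 236 to 452 CPM in SI (-6.89 ± 0.37, adjusted p = 1.60e-05), and the kinase gene Prkcq, with 0 to 1.61 CPM in colon and 115 to 238 CPM in SI (-7.39 ± 0.56, adjusted p = 0.000108). Thbs4, a thrombospondin (-4.17 ± 0.59), Gja1, the gap junction protein connexin 43 (-4.84 ± 0.44), and Edn3 were the other members that passed in all 8 fits that leave out 1 library. Gpr20, an orphan receptor, passed as well (-4.60 ± 0.89, adjusted p = 0.0169) but not without colon 1 or SI 1 (0.0561 and 0.0538). Between 7 and 8 of the 13 were lower in each of those fits, and 8 were lower without SI library 2.

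Summed over the 13 genes, neuronal nuclei held 596 to 723 CPM in colon and 1972 to 3221 CPM in SI, and non-neuronal nuclei 725 to 1021 CPM in colon and 914 to 1802 CPM in SI. The SI neuronal libraries were the highest of the 4 groups, above the EGFP-negative nuclei of their own segment, and the colon neuronal libraries were the lowest. Kit, Ano1, Adgrd1 and Prkcq, given above, made up little of the colon neuronal sum. Of the 13 genes 2 were higher in colon neuronal than in colon non-neuronal nuclei. The sums are thus not a measure of interstitial cell RNA alone. Other lists of cell markers gave fewer calls, apart from that of enterocytes described further on. None of their members was higher in colon, and 2.26% of all genes tested were lower. Smooth muscle genes summed to 625 to 748 CPM in colon and 793 to 1756 CPM in SI neuronal nuclei, and 2 of 13 tested were lower, the contractile genes Mylk (-1.63 ± 0.25, adjusted p = 0.00539) and Smtn (-1.75 ± 0.32, adjusted p = 0.0132, and 0.0539 without colon 1). Fibroblast genes summed to 160 to 226 CPM in colon and 281 to 665 CPM in SI, with 2 of 12 tested lower, the matrix genes Col6a1 (-2.22 ± 0.34, adjusted p = 0.00496) and Col3a1 (-1.86 ± 0.37, adjusted p = 0.0209), the second lost without colon 1, 2 or 3 or SI 1 (0.0501 to 0.0742). Macrophage genes summed to 15.6 to 30.9 CPM in colon and 32 to 68.4 CPM in SI, with none of 5 tested passing, and enteric glia genes summed to 13.8 to 28.6 CPM in colon and 33.0 to 54.9 CPM in SI, with none of 3 tested passing. Of 5 endothelial genes tested 2 were lower, the TGF-beta co-receptor Eng (-4.05 ± 0.54, adjusted p = 0.00209) and the lymphatic factor Prox1 (-2.45 ± 0.58, adjusted p = 0.0457, kept only without SI 3, and 0.0651 to 0.13 in the other 7 fits). Of 7 epithelial genes tested 2 were lower, Fabp2, a fatty acid binding protein (-5.23 ± 0.75, adjusted p = 0.00339), and Vil1, villin (-2.42 ± 0.49, adjusted p = 0.0224), lost without colon 1, 2 or 3 or SI 1 or 2 (0.0512 to 0.0587). Of the lists for lymphocytes, mesothelium, pancreatic acinar and erythroid cells 1 gene each was tested and none passed. The sums of these lists, and those of endothelial and epithelial genes, overlapped between segments with higher means in SI. The part of such transcripts in the differences of single genes was not tested.

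**Figure D3:**
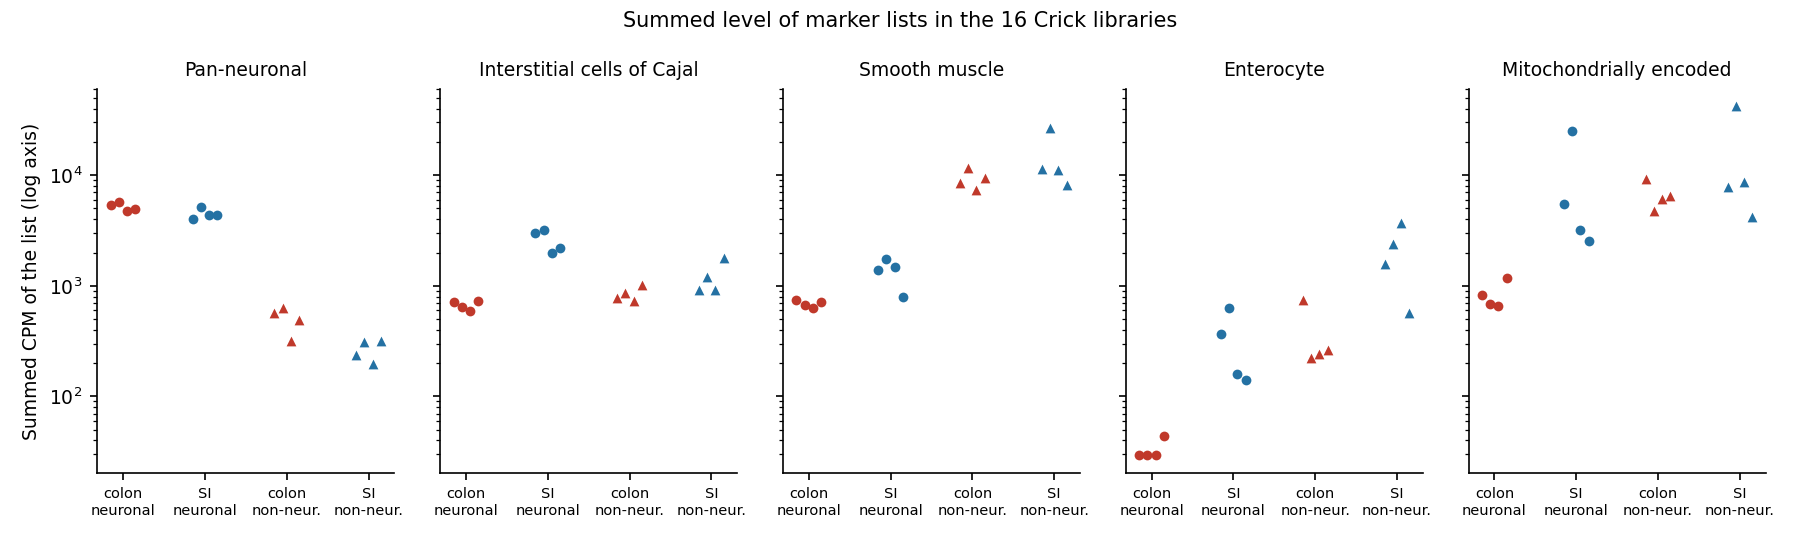
Summed CPM (log axis) of 5 gene lists in each library of the 4 Crick groups, neuronal groups left of non-neuronal groups and colon left of SI. Pan-neuronal genes separate the sorts, and their ranges in neuronal nuclei overlap between segments, while interstitial cell of Cajal genes are highest in SI neuronal nuclei (1972 to 3221 CPM) and enterocyte and mitochondrial genes are higher in SI than in colon neuronal nuclei.

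The 15 genes with the largest differences lower in colon were of mixed function, and those not yet described or given with the enterocyte and Hox genes follow. Osr1, a zinc finger factor of mesoderm, had 0.240, 0.206, 0 and 0.146 CPM in colon libraries 1 to 4, against 57.9, 70.1, 32.4 and 36.0 CPM in SI libraries 1 to 4, an SI to colon ratio of 317 with a 95% counting interval of 108 to 1540 (adjusted p = 3.90e-05). Fendrr, the long noncoding RNA beside the mesenchymal factor Foxf1, had 1.20, 1.64, 0.478 and 3.07 CPM in colon, against 104, 145, 64.2 and 69.7 CPM in SI (-5.81 ± 0.50, adjusted p = 0.000177). Both were near background in every colon library. Foxf1, looked at because of Fendrr after values were seen, had 0 to 1.44 CPM in colon and 6.86 to 15.2 CPM in SI (-4.85 ± 0.85, adjusted p = 0.0101). Dkk2, a secreted modulator of Wnt signalling, had 0.146 to 0.717 CPM in colon and 14.3 to 53.4 CPM in SI (-6.00 ± 0.63, adjusted p = 0.000513). Otogl, a relative of the inner ear protein otogelin, had 0 to 0.411 CPM in colon and 11.7 to 39.1 CPM in SI (-6.56 ± 0.67, adjusted p = 0.000420). Ms4a4d, of the MS4A family of membrane proteins, and Mro, maestro, rested on few colon counts, with SI to colon ratios of 66.1 (95% counting interval 18.0 to 551, adjusted p = 0.00265) and 52.1 (17.5 to 255, adjusted p = 0.00578). Rpl10-ps3, a ribosomal protein pseudogene with near-identical relatives and therefore uncertain, had 0, 0, 0 and 0.878 CPM in colon, against 16.9, 19.5, 17.7 and 25.0 CPM in SI (-6.03 ± 0.74, adjusted p = 0.00142).

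**Figure D4:**
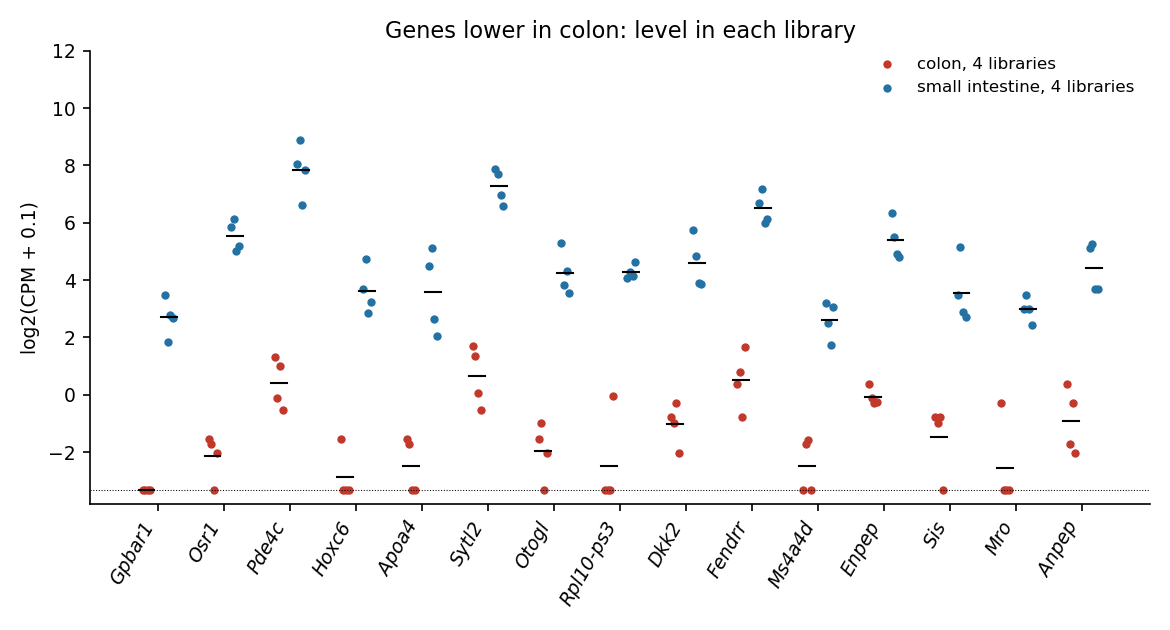
Level in each library (points, log2 of CPM plus a small constant) of the 15 named genes lower in colon, with colon libraries left of SI libraries for each gene; black bars are means of the log values and the dotted line is 0 CPM. All colon points lie below all SI points, as the rule that chose the genes required, and many colon points sit at or near 0.

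Hox genes, which record position along the body axis, differed for part of the Hoxc cluster. Of 17 tested genes of paralogue groups 1 to 8 none was higher and 4 were lower in colon (median -0.65). The shares of all genes tested were 1.03% and 2.26%. None of the 16 genes of groups 9 to 13 was abundant enough to test in these neuronal nuclei. Hoxc6 had 0.240, 0, 0 and 0 CPM in colon libraries 1 to 4, against 12.9, 26.6, 7.05 and 9.36 CPM in SI libraries 1 to 4, an SI to colon ratio of 273 with a 95% counting interval of 48.7 to 10829 (adjusted p = 0.000799). Its neighbour Hoxc5 had 0 to 0.239 CPM in colon and 2.86 to 5.24 CPM in SI, a ratio of 38.6 with an interval of 10.4 to 324 (adjusted p = 0.00486), and Hoxc4 had 2.47 to 9.32 CPM in colon and 18.9 to 63.3 CPM in SI (-2.71 ± 0.51, adjusted p = 0.0146, and 0.0549 without colon 1). The 3 genes lie side by side on chromosome 15 (GRCm38, 102967443 to 103036852, plus strand), and the annotated spans of Hoxc5 and Hoxc6 overlap, so their reads may be shared. The other gene was Hoxb6 (-1.95 ± 0.40, adjusted p = 0.0229) and was lost without colon 1, 2 or 3 or SI 4 (0.0716 to 0.0875).

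Genes of absorptive enterocytes, cells that are not part of the muscle layer, were higher in SI neuronal libraries. The list was chosen after values were seen, and 11 of 17 tested were lower in colon (median -4.24). Apoa4, an apolipoprotein of chylomicrons, had 0.240, 0.206, 0 and 0 CPM in colon libraries 1 to 4, against 22.6, 35.1, 6.10 and 4.03 CPM in SI libraries 1 to 4, a ratio of SI to colon of 155 with a 95% counting interval of 42.5 to 1284 (adjusted p = 0.00379). Sis, sucrase-isomaltase, had 0 to 0.481 CPM in colon and 6.50 to 35.6 CPM in SI (-5.49 ± 0.84, adjusted p = 0.00486), and the brush border peptidases Anpep, with 0.146 to 1.20 CPM in colon and 12.8 to 37.8 CPM in SI (-5.49 ± 0.67, adjusted p = 0.00127), and Enpep, with 0.717 to 1.20 CPM in colon and 28.2 to 80.1 CPM in SI (-5.70 ± 0.47, adjusted p = 0.000122), followed the same direction. Summed over the list, neuronal nuclei held 29.3 to 43.6 CPM in colon and 141 to 631 CPM in SI. Between 10 and 13 members were lower in the fits that leave out 1 library, and 11 (median -3.30) without SI library 2. In Crick non-neuronal nuclei 15 of 22 tested were lower in colon, where 2.12% of all genes were. In Bern neuronal nuclei 1 of 18 was lower, where 2.86% of all genes were, so that count does not set the list apart.

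Mitochondrially encoded genes were higher in the SI libraries too. Of 11 tested that code for proteins 8 were lower in colon (median -3.19), and their sum was 653 to 1178 CPM in colon and 2525 to 24978 CPM in SI, highest in SI library 2. The number lower ran from 0 to 9 over the fits that leave out 1 library and was 8 without SI library 2 (median -2.07). They were mt-Nd1, mt-Nd2, mt-Nd4, mt-Nd5, mt-Nd6, mt-Co1, mt-Atp8 and mt-Cytb, and each lost its call without colon 1, 2 or 3 (0.0540 to 0.12 over these fits). Without SI 1 mt-Nd1 (0.0509), mt-Nd5 (0.0533), mt-Nd6 (0.0587) and mt-Atp8 (0.0601) lost it as well, and mt-Nd2 lost it without SI 4 (0.0502). The ribosomal RNA genes mt-Rnr1 (-3.43) and mt-Rnr2 (-3.16), which are not on that list, were also lower. For mt-Co1, a subunit of cytochrome oxidase, with 225 to 456 CPM in colon and 801 to 8366 CPM in SI (-3.36 ± 0.66, adjusted p = 0.0180), the adjusted p was 0.0614, 0.0562 and 0.0779 without colon 1, 2 and 3. None of 29 ribosomal protein genes passed (median -0.01), where 3.29% of all genes tested did, so the count does not set the list apart. Their sums were 517 to 816 CPM in colon and 578 to 726 CPM in SI. The part of mitochondrial RNA in the other results was not tested beyond leaving out all genes of the mitochondrial genome, which gave 532 calls.

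Genes of sterol synthesis, another list chosen after values were seen, were all positive in sign, 19 of 19, with a median of 0.69, and 2 passed. Lss, lanosterol synthase, had 225 to 329 CPM in colon and 117 to 157 CPM in SI (1.04 ± 0.21, adjusted p = 0.0214). Fdps, farnesyl diphosphate synthase, had 63.1 to 91.3 CPM in colon and 22.8 to 46.0 CPM in SI (1.19 ± 0.27, adjusted p = 0.0357). Neither overlapped between segments, and both were lost in several fits, Lss without colon 1 or 3 or SI 1 or 3 (0.0601 to 0.0875) and Fdps without colon 1, 2 or 3 or SI 1, 2 or 3 (0.0581 to 0.119). The summed level was 1374 to 1781 CPM in colon and 1040 to 1096 CPM in SI neuronal nuclei. Of the state genes tested, none of 14 immediate early, 20 circadian clock or 14 interferon-stimulated genes passed, at medians of -0.08, -0.18 and -0.38. Over all genes tested 3.29% passed, so these counts do not set the lists apart.

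Further lists were drawn up after values were seen and are given as counts. Of 30 collagens tested Col25a1 was higher and 7 were lower (median -0.63), among them Col6a3 (-2.37 ± 0.35, adjusted p = 0.00428), and of 6 hedgehog pathway genes tested 3 were lower (median -1.90), among them the transcription factor Gli3 (-3.77 ± 0.66, adjusted p = 0.0101). Of 13 Hippo pathway genes tested 5 were lower (median -0.77), among them Amotl1, an angiomotin that binds the cofactor YAP (-2.35 ± 0.35, adjusted p = 0.00411). These 3 genes passed in all 8 fits that leave out 1 library, but none of them did over all 16 neuronal libraries (adjusted p of 0.178 for Col6a3, 0.119 for Gli3 and 0.316 for Amotl1). Gli3 also lost its call with limma-voom (0.0953) and Amotl1 over all 32 libraries (0.108). Hedgehog, Hippo and collagen genes had higher mean sums in non-neuronal than in neuronal nuclei of both segments. In SI neuronal nuclei they averaged 158, 408 and 1318 CPM, and in SI non-neuronal nuclei 405, 889 and 3883 CPM. Whether non-neuronal transcripts in the SI sort bear on these differences was not tested. Of 5 sodium, calcium and potassium exchangers tested 2 were higher and 1 was lower, the last being Slc24a3 (-2.16 ± 0.39, adjusted p = 0.0115), of 3 Kctd subunits of GABA-B receptors 2 were higher, of 4 neurexophilins 1 was higher (Nxph1) and 1 lower, and of 9 Slitrk and Flrt genes 2 were higher. Most of these counts depended on single libraries. Over the fits that leave out 1 library, 3 to 7 collagens, 1 to 3 hedgehog and 1 to 4 Hippo genes were lower, 0 to 2 exchangers, 0 to 2 Kctd genes and 1 to 2 Slitrk and Flrt genes were higher, and 0 to 1 neurexophilin was lower.

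Predicted genes, such as those with Gm or Rik symbols, numbered 64 of the 169 that were higher (37.9%) and 41 of the 371 that were lower (11.1%), where they were 24.3% of all genes tested. Of these, 20 of the 64 and 8 of the 41 overlapped a called gene with a full name. Gm43210, Gm42837 and Gm43211 lie within Col25a1 on the same strand of chromosome 3 and had log2 differences of 4.81, 4.67 and 4.21. In nuclear RNA such transcripts cannot be told apart from the unspliced RNA of their host. The same pattern was seen, looked up after values were known, for Egfr, a growth factor receptor, with 32.3 to 46.8 CPM in colon and 6.42 to 13.3 CPM in SI (1.94 ± 0.31, adjusted p = 0.00578), and its antisense transcript Egfros (2.57 ± 0.44, adjusted p = 0.00864). Whether counting used the strand is not given in the sources used here, so Egfr and Egfros cannot be told apart either. The transcription factor Sox1 had 11.5, 4.93, 21 and 11.7 CPM in colon libraries 1 to 4, against 1.67, 2.57, 3.81 and 2.47 CPM in SI libraries 1 to 4 (2.21 ± 0.48, adjusted p = 0.0312), together with Sox1ot, which spans it (1.44 ± 0.26, adjusted p = 0.0107). Sox1 lost its call without colon 1 or 3 or SI 1, 2 or 4 (0.0691 to 0.112).

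The same segment comparison in Bern neuronal nuclei takes its differences from Bern libraries alone. Its filter, scaling and spread came from a joint fit with the 8 Crick neuronal libraries, so its adjusted p-values are not independent of them. In Bern 4.17% of genes tested passed, 1.31% higher and 2.86% lower in colon. Of the 169 genes higher in Crick colon 165 (97.6%) had a positive difference in Bern, with a median of 1.54, and 64 also passed there. Of the 370 lower genes tested there 350 (94.6%) had a negative one, with a median of -2.16, and 149 also passed. Over all 16321 genes tested in both 60.2% had the same sign. Of the 539 genes 1 passed in the opposite direction. Bern libraries varied more, with a biological coefficient of variation of 0.411 over the 8 Crick neuronal libraries and 0.720 over the 8 Bern ones. Bern neuronal libraries held 2420849 to 3901005 counts in colon and 2394513 to 4581657 in SI, against 3788206 to 8192741 in Crick. Xist was high in the Bern neuronal libraries numbered 3 and 4, and in Crick in those numbered 4. Whether depth or these libraries bear on the spread was not tested.

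Pou3f3 differed by 7.91 ± 0.71 (adjusted p = 1.11e-06) in Bern, Pantr2 by 7.50 ± 1.07 (adjusted p = 0.000351), Pde1c by 2.56 (adjusted p = 7.27e-06), Col25a1 by 4.16 (adjusted p = 1.25e-05) and Ahr by 3.12 ± 0.56 (adjusted p = 0.00273). Kcnn3 (1.12), Htr2b (0.97), Sst (2.67), Penk (2.25) and Syn3 (1.24) also passed in Bern and in the same direction. Among lower genes Gpbar1 (-6.68), Meis2 (-4.70), Kit (-5.09), Ano1 (-8.82), Osr1 (-6.85), Pde4c (-5.31), Nmur2 (-4.83), Hoxc6 (-5.75) and Pcdh17 (-2.52) did so. Of the 15 genes with the largest differences higher in colon 12 passed in Bern, the exceptions being Vxn (2.57, adjusted p = 0.193), Sfrp4 (1.29, adjusted p = 0.577) and Olfm3 (1.45, adjusted p = 0.273). Of the 15 lower ones 10 passed. The other 5 were Apoa4 (-5.12, adjusted p = 0.127), Enpep (-2.62, adjusted p = 0.135), Sis (-0.78, adjusted p = 0.694), Anpep (-2.17, adjusted p = 0.193) and Rpl10-ps3, whose sign was the opposite (3.59, adjusted p = 0.0981). Among further genes described above, Ahrr (1.97, adjusted p = 0.238), Calcrl (1.01, adjusted p = 0.103), Kcnk3 (-1.15, adjusted p = 0.178) and Foxf1 (-3.20, adjusted p = 0.205) had the same sign without passing, and Opcml had the opposite sign (-0.10, adjusted p = 0.968). Of the 138 called genes followed 133 had the same sign in Bern, 74 of them passing, and 5 had the opposite sign, none passing. The difference between facilities was tested as a segment by facility interaction over 17419 genes, and 1 gene passed (0.00574%), a gene without a symbol in the annotation. At an unadjusted p under 0.05 1134 genes (6.51%) passed, and DESeq2 called 35.

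**Figure D5:**
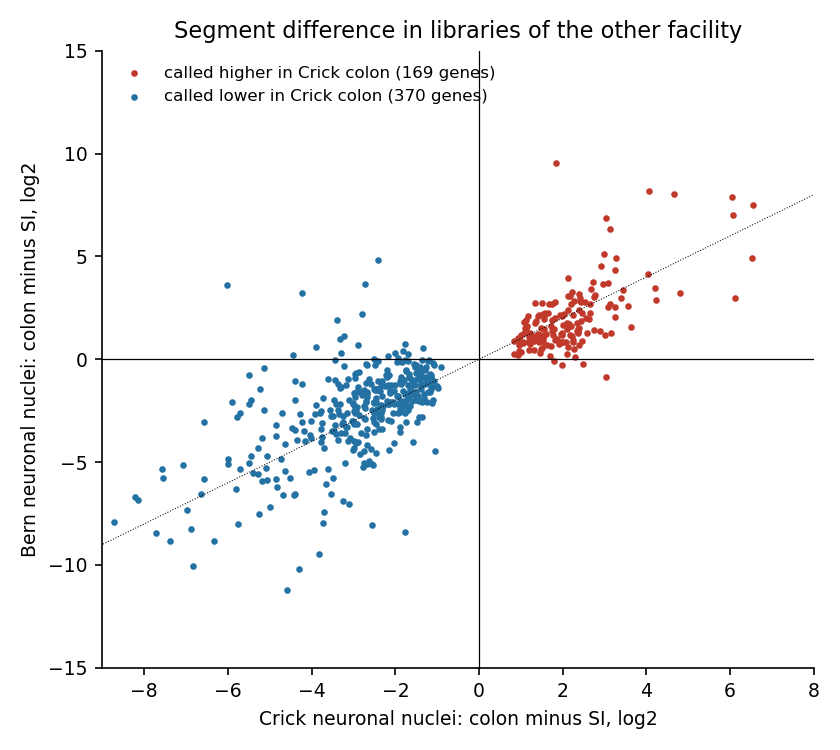
Log2 difference of colon minus SI in Crick neuronal nuclei (horizontal axis) against Bern neuronal nuclei (vertical axis) for the 169 genes higher and 370 genes lower in Crick colon that were tested in both; the dotted line marks equal differences. Points fall mainly in the quadrants of equal sign, 165 of 169 and 350 of 370.

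Non-neuronal nuclei of the Crick mice were set beside the neuronal ones to see which differences the sort shares. In them 5.55% of genes passed between colon and SI, 3.43% higher and 2.12% lower. Of the 540 genes called in neuronal nuclei 398 (73.7%) had the same sign in non-neuronal nuclei, against 59.3% of all genes, and 99 passed there in the same direction and 11 in the opposite one. The difference between sorts was tested as a segment by sort interaction over 20664 genes, of which 527 passed (2.55%), 93 with a higher colon to SI ratio in neuronal nuclei (0.45%) and 434 with a lower one (2.1%). CPM in the next paragraphs were scaled over the 16 Crick libraries and differ slightly from those above.

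Pou3f3, with 85.0 to 115 CPM in colon and 0.644 to 2.10 CPM in SI neuronal nuclei, had 6.49 to 17.6 CPM in colon and 0.786 to 12.9 CPM in SI non-neuronal nuclei, where it did not pass (1.46 ± 0.62, adjusted p = 0.194). Its interaction was 4.52 ± 0.92 (adjusted p = 0.0124), so the segment difference was larger in neuronal nuclei. Ahr had 49.1 to 71.0 CPM in colon and 6.83 to 12.1 CPM in SI neuronal nuclei, and 16.2 to 38.8 CPM in colon and 8.95 to 21.9 CPM in SI non-neuronal nuclei (interaction 1.84 ± 0.46, adjusted p = 0.0393). Pde1c turned round between sorts. It had 282 to 550 CPM in colon and 41.7 to 53.3 CPM in SI neuronal nuclei, while non-neuronal nuclei had 17.0 to 58.0 CPM in colon and 74.5 to 134 CPM in SI, a difference of -1.32 ± 0.31 that also passed (adjusted p = 0.0193), with an interaction of 4.51 (adjusted p = 2.52e-05). The interaction also passed for Col25a1 (4.26), Kcnn3 (1.88, adjusted p = 0.00142) and Htr2b (1.90, adjusted p = 0.0291), and it did not for Gpbar1 (adjusted p = 0.0648).

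Kit had 2.44 to 15.2 CPM in colon and 353 to 566 CPM in SI neuronal nuclei, and 100 to 192 CPM in colon and 49.6 to 279 CPM in SI non-neuronal nuclei. The non-neuronal groups overlapped (0.37, adjusted p = 0.762), and the interaction was -6.43 (adjusted p = 0.000147). Ano1 followed it, with 99.2 to 189 CPM in colon and 139 to 321 CPM in SI non-neuronal nuclei and an interaction of -5.81. Of the 13 interstitial cell genes 3 were lower in colon in non-neuronal nuclei (median -0.60), where 2.12% of all genes were. Osr1 was lower in colon in both sorts, with 0 to 0.229 CPM in colon and 31.7 to 72.8 CPM in SI neuronal nuclei, and 6.91 to 11.1 CPM in colon and 36.4 to 50.2 CPM in SI non-neuronal nuclei (-2.27, adjusted p = 0.000444). Sterol genes were positive in 19 of 19 in non-neuronal nuclei as well, and 7 of them passed there, where 3.43% of all genes were higher.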

How the data were processed

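For each of the 32 libraries the authors deposited expected counts by Ensembl gene, in 1 table. Per the labels' protocols it came from NuGEN Ovation RNA-Seq V2 libraries read as single ends of 75 bp, and the submitters' processing notes name RSEM 1.3.0, STAR 2.5.2, DESeq2 1.10.1 and GRCm38, without their order. The annotation release and the strand of counting are not given in the sources used here. Estimated counts were rounded to whole counts. Symbols and coordinates were joined from GENCODE M21 (GRCm38), which matched 51719 of 51912 identifiers.

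The 8 Crick neuronal libraries were fitted alone in edgeR 4.0.16 (R 4.3.3): filterByExpr, TMM scaling, 1 mean per group and a quasi-likelihood F test, whose p-values were adjusted by Benjamini-Hochberg and called under 0.05. The SE of a log2 difference is its size over the root of its F value. The facility interaction and the Bern segment comparison used a fit of the 16 neuronal libraries. The sort contrasts, the sort interaction and the segment comparison of non-neuronal nuclei used a fit of the 16 Crick libraries. DESeq2 1.42.0, limma 3.58.1 (voom), other scalings, filters and sets of libraries were alternatives. Only the main edgeR comparison of the 8 libraries was tested on simulated data. The figures' log values add 0.1 CPM. Named genes were the called members of 36 lists, Ahr, and the 15 largest differences upward and downward among called genes that averaged 5 CPM or more in the higher group, did not overlap and had neither a predicted symbol nor a place in a list for other cells or RNA quality. For the interactions it was the 6 largest each way under like conditions. Members, lists and this rule were chosen with earlier results of these data known, and 9 further lists, as well as Foxf1, Sox1, Sox1ot, Egfr and Egfros, were chosen after values were seen. Some called members of these lists, and the counts of the lists that hold them, are not reported here. No 2 libraries held identical values. Equal replicate numbers were not taken as pairs of colon and SI libraries. The labels do not give them as such, and not every pair deviated together (correlations of deviations of 0.352, -0.406, -0.080 and 0.267). Such correlations cannot exclude shared animals. Xist was high in all 4 Crick libraries numbered 4, and SI library 2 had the highest mitochondrial share in both sorts (16% neuronal, 23.6% non-neuronal). With the replicate number as a block 256 genes passed instead of 540.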

Additional observations from a re-analysis of the deposited data

Results flagged for a closer look

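Among the 30 named genes, 12 of 60 groups of 4 libraries held a library set apart from the other 3 by an outlier rule. The rule's rate of 1 in 20 holds for normally distributed values. Counts near 0 are not such values, so no excess over chance is read from the 12. Colon library 4 was above the other colon libraries for Pantr2 (18.3 CPM), Vxn (17.3 CPM), Wnk4 (124 CPM), Sema3e (118 CPM), Svet1 (203 CPM) and Rpl10-ps3 (0.878 CPM), and below them for Sis (0 CPM). Colon library 1 was above the other 3 for Hoxc6 (0.240 CPM) and Mro (0.721 CPM). In the SI group, library 2 was above the others for Kcnk9 (1.47 CPM) and Sis (35.6 CPM), and library 4 was below them for Olfm3 (1.56 CPM). These are the libraries that stood apart on the principal components in 9 of the 12 cases. The values at or under 1 CPM rest on few counts.

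The colon to SI difference of some named genes was not the same in neuronal and non-neuronal nuclei, as tested by the interaction of segment and sort. It was larger in neuronal nuclei, on the log2 scale, for Pou3f3 (4.52), Pde1c (4.51), Sema3e (4.43), Col25a1 (4.26), Vxn (4.16), Ano5 (4.15) and Ahr (1.84). It was more negative in neuronal nuclei for Sytl2 (-7.61), Osr1 (-5.94), Ms4a4d (-5.33), Dkk2 (-5.14), Otogl (-4.94), Fendrr (-4.82), Pde4c (-4.74), Enpep (-4.58) and Mro (-4.54).

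The largest interactions over all genes came mainly from the non-neuronal nuclei. The metabotropic glutamate receptor Grm8 had an interaction of 6.08, with 7.55 to 22.6 CPM in colon and 1.68 to 8.38 CPM in SI neuronal nuclei, and 1.68 to 5.04 CPM in colon and 56.3 to 112 CPM in SI non-neuronal nuclei. Cyp1b1 (4.74), the secretin receptor Sctr (4.60), Myrfl (4.73) and Lvrn (4.53) had the same sign. The posterior gene Hoxa10 had an interaction of -8.84, with 0 to 0.196 CPM in colon and 0 to 0.762 CPM in SI neuronal nuclei, and 10.1 to 26.9 CPM in colon and 0 to 0.419 CPM in SI non-neuronal nuclei. Ap1m2 (-8.50), the water channel Aqp4 (-7.65), Cytip (-7.57) and the endothelial factor Sox18 (-6.78) followed in that direction. Summed markers of other cells differed between colon and SI non-neuronal nuclei too. Epithelial (2497 to 9461 CPM in colon, 198 to 1081 CPM in SI) and endothelial genes (570 to 1191, 85.3 to 217) were higher in colon. Mesothelial (164 to 466, 1428 to 2055) and enteric glia genes (205 to 303, 347 to 494) were lower. Colon non-neuronal library 3 held 3599 CPM of macrophage genes, its group's highest. Whether cell content bears on these interactions was not tested.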

How the results depend on the processing

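The 540 calls (169 higher, 371 lower in colon) became 1088 (414 and 674) with DESeq2, 159 (58 and 101) in a fit of all 16 neuronal libraries, 160 (26 and 134) over all 32 libraries, 1241 (537 and 704) with low counts unfiltered and 838 (697 lower) within the 16 Crick libraries, a fit in which the median of all genes moved to -0.12 and the split turned to 141 higher. Leaving out 1 library gave 279 to 700 calls (72 to 228 higher, 201 to 472 lower). With the replicate number as a block 256 passed (69 and 187). The labels do not say whether equal numbers share an animal, and the correlations of deviations did not all exceed 0.1. The numbers were therefore not taken as pairs, although these correlations cannot exclude shared animals. RLE scaling (539), upper quartile scaling (550), limma-voom (423), no mitochondrially encoded genes (532), no libraries numbered 4 (501) and a term for them (661), the last 2 chosen after seeing the data, stayed within 1.5 times. Of 138 called genes followed, 76 passed in every fit that leaves out 1 library, 63 over all 16 neuronal libraries and 137 with DESeq2.

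The facility interaction gave 35 calls (23 and 12) with DESeq2, 93 (46 and 47) without a filter and 0 to 3 without 1 library (0 to 1 higher, 0 to 2 lower). The sort interaction gave 1101 (238 and 863) with DESeq2 and 947 (167 and 780) without a filter. Without 1 library it gave 310 to 634 (49 to 128 higher, 258 to 506 lower). It gave 278 (53 and 225) without SI neuronal 2, SI non-neuronal 2 and colon non-neuronal 3 together. These 3 were chosen after seeing the data. The first 2 had the highest mitochondrial shares of their groups (16% and 23.6%), and the last the highest macrophage sum (3599 CPM). Cyp1b1, not called, changed sign with limma-voom (-0.94). Tac1 passed with DESeq2 (adjusted p = 0.0053) and over 16 neuronal libraries (0.0383). The causes were not tested. Counts limit low genes: a group at 0 allows up to 0.15 CPM in colon and 0.133 CPM in SI.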
